A study of Mus musculus with 9 samples.

Results

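The 44 genes described here encode the contractile machinery of striated muscle, sorted by the isoform class each is best known for. They comprise 3 embryonic and neonatal isoforms, 9 slow, 11 fast and 5 cardiac isoforms, 12 genes shared between fibre types, and 4 genes of energy supply and regulation. They were chosen by name: 63 of the 55681 probes on the array carry one of the 44 names, and for each gene the probe with the highest mean log2 signal over all arrays was used. They are 44 of 36373 genes and other features, and 42 of them passed the filter on dim probes and were tested. Sequences are printed in lower case, 5′ to 3′, with capitals where stated.

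Satellite cells are muscle stem cells that lie against the fibre. They were sorted here for integrin alpha-7 and CD34, after cells bearing Sca1, CD11b, CD45 or CD31 had been gated out. The KO group held 3 samples from Bmi1-deficient mice on the FVB background, labelled male and 2 months old, and the WT group held 3 samples from wild type mice of the same background, sex and age. The labels give no treatment for either group, and nothing in them states which part of Bmi1 was deleted, in which cells it was deleted, or whether animals were pooled. The Bmi1 protein belongs to a Polycomb complex that represses developmental genes.

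In the sarcomere, myosin heavy chains with their light chains pull on actin filaments, and a complex of tropomyosin and troponins T, C and I lets calcium switch the pull on. Most of these proteins exist as several isoforms from separate genes. Developing and regenerating muscle uses embryonic and neonatal myosins and several isoforms later typical of the heart, and adult fibres then use slow or fast sets. A resting satellite cell has no sarcomeres and is known for low levels of most of these genes, while the fibre it lies on makes them in very large amounts.

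The probes below, 60 bases each, are those of members on which the results turn. The pair for Tnnt3, which encodes fast troponin T, overlaps on the transcript, and its shared stretch of 27 bases is in capitals, so that both read the same stretch of RNA. The first lies at chr7:149698500-149700262 in mm9, plus strand, and spans an interruption of the genomic sequence. The second lies at chr7:149698467-149698526, plus strand.
Tnnt3 probe 1: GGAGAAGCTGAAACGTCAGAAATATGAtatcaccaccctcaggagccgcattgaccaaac
Tnnt3 probe 2: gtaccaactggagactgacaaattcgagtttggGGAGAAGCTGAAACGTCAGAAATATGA
The probe for cardiac troponin T, Tnnt2 (chr1:137747976-137748288, plus strand), covers a related stretch. Over 44 aligned bases it is identical to the first Tnnt3 probe at 29, which is 65.9%, and the longest run they share is 8 bases.
Tnnt2: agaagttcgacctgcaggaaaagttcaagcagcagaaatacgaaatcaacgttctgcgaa
The neonatal and embryonic myosin heavy chain probes, Myh8 (chr11:67121925-67121984, plus strand) and the second Myh3 probe (chr11:66915107-66915166, plus strand), also cover related stretches. They are identical at 29 of 48 aligned bases, which is 60.4%, and the longest run they share, 7 bases, is in capitals.
Myh8: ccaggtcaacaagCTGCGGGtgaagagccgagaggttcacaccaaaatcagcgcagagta
Myh3 probe 2: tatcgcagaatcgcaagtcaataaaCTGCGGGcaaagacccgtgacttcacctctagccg
The probes of the cardiac and the slow troponin I, Tnni3 (chr7:4472043-4472102, minus strand) and Tnni1 (chr1:137705328-137706203, plus strand), and of skeletal alpha-actin, Acta1 (chr8:126416197-126416256, minus strand), are shown for the results given for each below.
Tnni3: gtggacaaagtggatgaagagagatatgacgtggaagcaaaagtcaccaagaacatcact
Tnni1: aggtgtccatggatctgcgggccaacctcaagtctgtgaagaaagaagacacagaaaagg
Acta1: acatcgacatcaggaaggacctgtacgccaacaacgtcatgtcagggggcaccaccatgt

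The 250 bases upstream of the gene start are shown for 3 members that differed in their pattern over the samples: Tnnc2, highest in KO sample 1, Actc1, lowest in it, and Myh8, higher in every KO sample than in every WT sample. The sequences are RefSeq's in build GRCm38.p6, whose promoter table holds 46 entries for 35 of the 44 members. Capitals mark matches to the E-box (CANNTG, bound by myogenic factors such as MyoD), to the MEF2 consensus and to the CArG box, the site of serum response factor. Each of these motifs reads as itself on the other strand, and the matches in these windows do not overlap. The windows are chr2:164779735-164779984 for Tnnc2 (minus strand), chr2:114052876-114053125 for Actc1 (minus strand) and chr11:67276874-67277123 for Myh8 (plus strand).
Tnnc2 upstream: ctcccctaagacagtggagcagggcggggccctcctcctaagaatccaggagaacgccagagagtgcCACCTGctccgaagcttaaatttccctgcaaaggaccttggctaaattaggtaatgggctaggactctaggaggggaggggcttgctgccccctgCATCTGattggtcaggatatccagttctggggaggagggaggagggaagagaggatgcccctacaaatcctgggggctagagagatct
Actc1 upstream: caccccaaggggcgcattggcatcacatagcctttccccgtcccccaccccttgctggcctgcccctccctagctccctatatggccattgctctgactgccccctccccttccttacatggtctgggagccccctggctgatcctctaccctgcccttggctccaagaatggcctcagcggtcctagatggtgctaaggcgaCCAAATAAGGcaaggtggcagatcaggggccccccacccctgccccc
Myh8 upstream: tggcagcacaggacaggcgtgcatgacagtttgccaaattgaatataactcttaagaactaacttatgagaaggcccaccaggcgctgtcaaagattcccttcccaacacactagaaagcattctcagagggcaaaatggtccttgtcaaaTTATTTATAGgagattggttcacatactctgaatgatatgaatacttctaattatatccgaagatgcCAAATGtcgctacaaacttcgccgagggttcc
The Tnnc2 window holds 2 E-boxes, the Actc1 window 1 CArG box, and the Myh8 window 1 MEF2 consensus and 1 E-box. A CArG box is present in 8 of the 46 member windows (17.4%) and in 1.47% of all 32851 windows of the same length. The MEF2 consensus is in 10.9% of member windows and 2.92% of all windows, and an E-box in 82.6% and 66.2%. The members with a CArG box in a window are Acta1, Actc1, Ldb3, Myh4, Myl3, Myom1 and Nebl, and those with the MEF2 consensus are Myh1, Myh4, Myh8, Myoz2 and Ttn. These are matches of letters only.

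Values are log2 signals relative to the array's 75th percentile, so that 0 is the level of that percentile. The 6 KO arrays form 3 pairs that share a number in their descriptions and were averaged (r over probes from 0.994 to 0.996 within a pair, against 0.962 to 0.979 for the other 33 pairs of arrays), which left 3 KO and 3 WT samples. The titles number the 6 KO arrays as biological replicates, so the averaging rests on the shared numbers and the closeness of the pairs. On each array 71.9% to 75.8% of spots were well above background and 0 spots were saturated. Precision is limited by how few arrays there are. Separate animals are not stated for the samples, so the p-values rest on a spread that may be technical. In these bulk samples, fewer cells of a type and less RNA per cell cannot be told apart. At the main Bmi1 probe the signal was 0.58, 0.71 and 0.48 in KO samples 1, 2 and 3, against 0.40, 0.61 and 0.48 in WT samples 1, 2 and 3. A second Bmi1 probe read 0.00, -0.31 and -0.20 in KO, against -0.30, -0.50 and -0.33 in WT. No source used here gives the deleted part, so these probes do not check the labels. KO array 1, one of the arrays averaged into KO sample 1, is KO by title, source and description but has wild type in its genotype field. Its partner, array 4, is labelled Bmi1-deficient throughout.

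KO sample 1 stood apart in these genes. It lay more than 1 log2 unit above all 5 other samples in 10 of the 42 tested members, as compared to 0.596% of all 28377 genes tested. It lay more than 1 below all others in 1 member, Myh4 (0.539% of all genes). The other KO samples and the WT samples each did so in at most 1 member in either direction. The SD over the KO samples had a median of 0.58 over members and 0.21 over all genes, and that over the WT samples a median of 0.39 over members and 0.21 over all genes. Both arrays of KO sample 1, which lay on different slides, gave nearly the same values, with a median absolute difference of 0.12 over the members.

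No sarcomere gene differed between KO and WT past the threshold. By limma over all 28377 genes, 0 of 42 members had an adjusted p under 0.05, where 0.141% of all genes did. The lowest adjusted p of a member was 0.140. At an unadjusted p under 0.05 there were 8 members, all of them higher in KO, where 11% of all genes passed. One of these, Ampd1, was measured well above background in KO alone and had to differ, and 7 remain without it. The median log2 difference of the members was 0.35, against -0.02 over all genes. Of the 42 differences, 32 were above 0, that of Ampd1 included, where 47.2% of all genes were. An absolute difference over 1 was found in 8 members, Ampd1 included, and in 5.65% of all genes. Without KO sample 1 the members' median was 0.10, and 10 members had an unadjusted p under 0.05 (9.06% of all genes), 7 higher and 3 lower in KO (Tnnc2, Actn2 and Ckm), again with 0 past the adjusted threshold (0.0176% of all genes). Ampd1 was again among the 7 higher ones. Within slide 1 and slide 2 the members' median was 0.27 and 0.51.

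**Figure D1:**
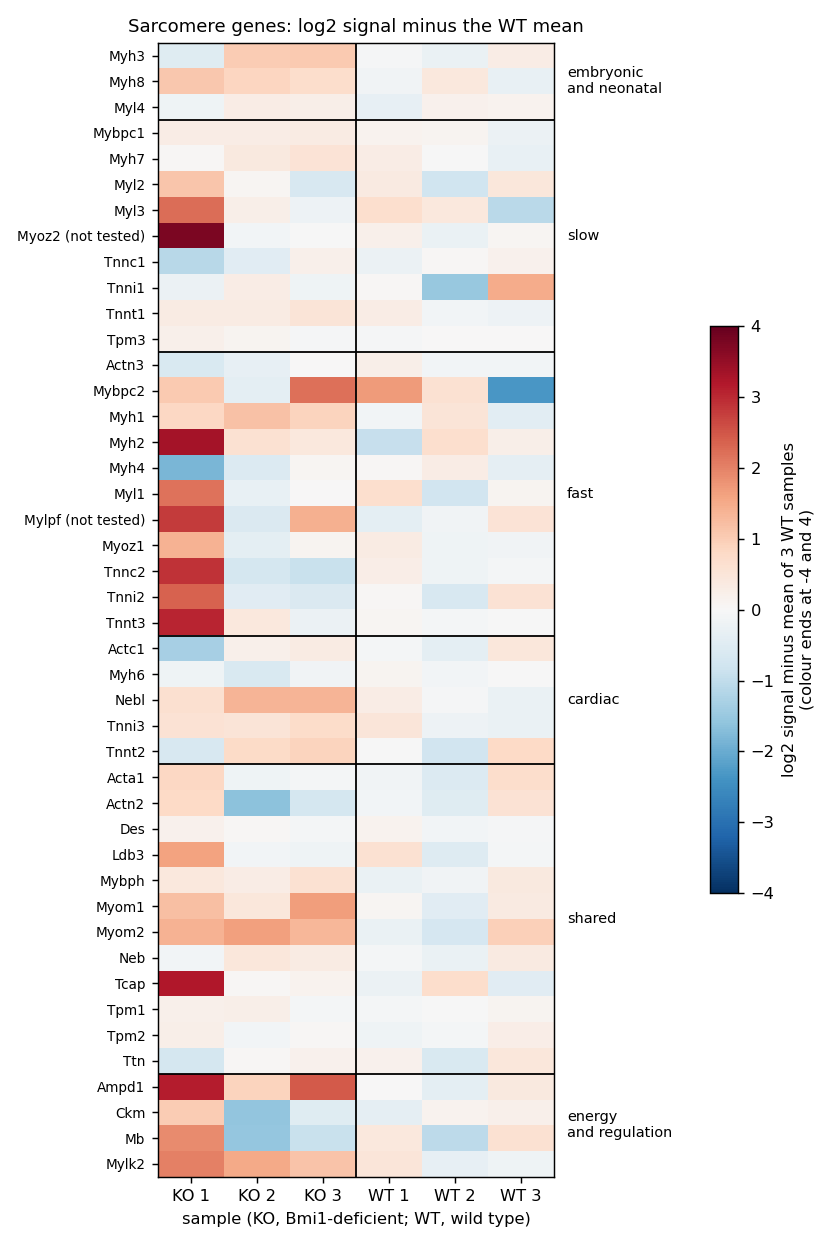
Log2 signal of the 44 sarcomere genes minus the mean of the 3 WT samples, one row per gene grouped by isoform class, with the KO samples in the left columns and the WT samples in the right columns. Red is above and blue below the WT mean, and the colour ends at -4 and 4. Deep reds in the column of KO sample 1 include fast genes (Myh2, Tnnt3, Tnnc2, Mylpf, Tnni2), Tcap, Ampd1 and Myoz2, while Mylk2, Myom2, Myh8 and Myh1 are red in all 3 KO samples.

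The groups did not overlap in 11 members, 10 higher and 1 lower in KO. That is 26.2% of the members tested, and the background is 16.7% of all genes, 8.62% higher and 8.09% lower in KO. The 10 were Mylk2, Nebl, Myh8, Myh1, Ampd1, Myom2, Myom1, Tnni3, Tnnt1 and Mybpc1, and the lower one was Myh6. Ampd1 passed the filter through KO arrays alone, and 9 are left without it. Without KO sample 1, Actn2, Ckm and Tnnc2 joined Myh6 as lower with no overlap, which made 4 lower and 13 higher (12.6% and 12.4% of all genes). At a second Actn2 probe the groups overlapped even then. Ampd1 was again among the 13. The 11 were spread over all isoform classes, with 1 embryonic and neonatal, 2 slow, 1 fast, 3 cardiac, 2 shared and 2 energy genes.

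Mylk2, the kinase that phosphorylates the regulatory light chain in skeletal muscle, came closest to the threshold. Its log2 signal was 1.13, 0.63 and 0.25 in the KO samples, against -0.41, -1.20 and -1.04 in the WT samples (probe at chromosome 2, 152748725 to 152748784, mm9). Every KO sample lay above every WT sample, with KO sample 1 the highest. The means were 0.67 ± 0.45 in KO and -0.88 ± 0.42 in WT (SD, n = 3 each), a difference of 1.55 ± 0.31 (SE) or 2.93-fold (limma adjusted p = 0.140). It was 1.49 within slide 1, 1.77 within slide 2 and 1.32 without KO sample 1. In the fit of all 9 arrays with the sample as a random block, Mylk2 passed (limma adjusted p = 0.035), which it did not over the samples.

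Among the myosin heavy chains, the motor proteins that set the speed of a fibre, the neonatal Myh8 and the fast Myh1 (type IIx) had KO samples wholly above the WT samples. Myh8 read 1.07, 0.85 and 0.69 in KO, against -0.14, 0.42 and -0.31 in WT. The difference was 0.88 ± 0.23 (limma adjusted p = 0.235), it was 1.13 within slide 1 and 0.41 within slide 2, and a second Myh8 probe gave 0.64, also with no overlap. Myh1 read -0.73, -0.40 and -0.68 in KO, against -1.66, -1.06 and -1.97 in WT, a difference of 0.96 ± 0.26 (limma adjusted p = 0.248). Neither gene rested on KO sample 1: without it the differences were 0.78 and 1.02.

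The embryonic heavy chain Myh3 split the KO samples. Its signal was -1.72 in KO sample 1 but -0.21 and -0.18 in KO samples 2 and 3, against -1.27, -1.51 and -0.94 in WT. KO sample 1 was thus the lowest of the 6 samples and the other 2 KO samples the highest. The difference over all samples was 0.53 ± 0.45 (limma adjusted p = 0.753), and without KO sample 1 it was 1.05 (limma adjusted p = 0.281). The second Myh3 probe, whose sequence is given above, showed the same order of KO samples, with -1.77, -0.42 and -0.40 in KO and -1.23, -1.73 and -1.05 in WT.

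Myh2 (type IIa) split them the opposite way. It read -0.27 in KO sample 1, and -3.01 and -3.18 in KO samples 2 and 3, against -4.52, -2.94 and -3.38 in WT. The difference of 1.46 ± 0.86 (limma adjusted p = 0.626) came to 0.52 without KO sample 1. Myh4 (type IIb), the fastest adult heavy chain, read -4.82, -3.55 and -2.94 in KO, against -2.94, -2.71 and -3.35 in WT, with KO sample 1 the lowest of all. Its difference was -0.77 ± 0.49 and, without that sample, -0.24. So KO sample 1 was the highest of all samples in the IIa gene and the lowest in the IIb gene.

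The slow heavy chain Myh7, which is also the beta chain of the heart, read -2.74, -2.42 and -2.26 in KO, against -2.48, -2.80 and -3.10 in WT, and the groups overlapped. Myh6, the alpha chain of the heart, was the one member lower in every KO sample, with -1.57, -1.98 and -1.53 in KO and -1.28, -1.50 and -1.39 in WT. The Myh6 difference was -0.31 ± 0.17 (limma adjusted p = 0.584). The KO sample 3 and WT sample 2 values nearly touch, and a second Myh6 probe was not well above background on any array.

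**Figure D2:**
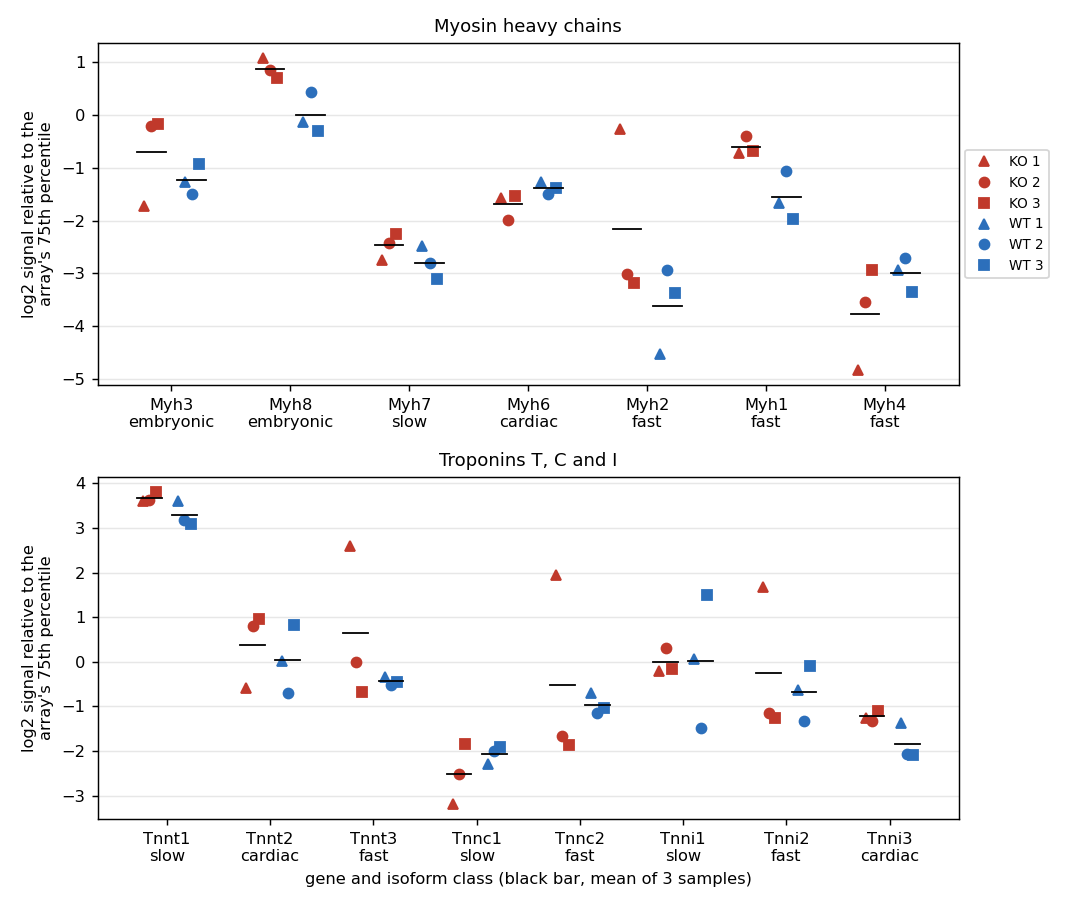
Log2 signal relative to the array's 75th percentile (y axis) of the 7 myosin heavy chain genes (upper panel) and the 8 troponin genes (lower panel), with the 3 KO samples in red left of the 3 WT samples in blue, a black bar for the group mean, and the isoform class under the gene name. KO sample 1 (red triangle) is far above all other points in Myh2, Tnnt3, Tnnc2 and Tnni2 and below them in Myh3, Myh4 and Tnnc1, while Myh8, Myh1, Tnnt1 and Tnni3 have no overlap of groups.

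Most light chains, which stiffen the lever arm of myosin, had their highest value in KO sample 1. Myl1, the fast essential light chain, read 1.51, -0.97 and -0.66 in KO, against -0.01, -1.44 and -0.57 in WT. Myl3, the slow and ventricular essential chain, read -0.42, -2.43 and -2.86 in KO, against -2.00, -2.23 and -3.74 in WT. Both were highest in KO sample 1, by 1.52 and 1.57 over the next sample. The Myl1 difference was 0.63 ± 0.73 and, without KO sample 1, -0.15, and that of Myl3 was 0.75 ± 0.76 and, without it, 0.01.

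The slow and ventricular regulatory chain Myl2 read 0.55, -0.46 and -1.18 in KO, against -0.20, -1.36 and -0.09 in WT, a difference of 0.19 ± 0.54 that became -0.27 without KO sample 1. Mylpf, the fast regulatory chain, was well above background on both arrays of KO sample 1 and on no other array, so it was not tested. Myl4, the embryonic and atrial essential chain, had groups that overlapped, with 1.72, 2.18 and 2.13 in KO and 1.57, 2.07 and 2.02 in WT. The limma adjusted p was 0.888 for Myl4, 0.831 for Myl1, 0.803 for Myl3 and 0.944 for Myl2.

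The 3 fast troponins varied widely among the KO samples. Tnnc2, the calcium-binding subunit of fast fibres, read 1.94 in KO sample 1 and -1.67 and -1.85 in KO samples 2 and 3, against -0.71, -1.14 and -1.03 in WT. Tnni2, the fast inhibitory subunit, read 1.68, -1.14 and -1.26 in KO, against -0.62, -1.34 and -0.10 in WT. Tnnt3, the fast tropomyosin-binding subunit, read 2.60, -0.01 and -0.68 in KO, against -0.35, -0.51 and -0.45 in WT. All 3 were highest in KO sample 1, by 2.65, 1.78 and 2.61 over the next sample.

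Both arrays of KO sample 1 showed it. On arrays 1 and 4, Tnnc2 read 1.88 and 1.99, Tnni2 1.59 and 1.76, and Tnnt3 2.51 and 2.68. The second Tnnt3 probe, which shares the capitals above, read 1.16, -1.53 and -2.29 in KO, against -2.30, -2.09 and -2.31 in WT. The difference for Tnnc2 was 0.43 ± 1.01 (limma adjusted p = 0.930) over all samples and -0.80 without KO sample 1 (limma adjusted p = 0.326), where both KO samples then lay below all WT samples. For Tnni2 it was 0.44 ± 0.84 and, without KO sample 1, -0.52. For Tnnt3 it was 1.07 ± 0.82 and, without it, 0.09. The sign of the fast troponin C and I differences thus depended on that one sample.

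The slow and cardiac troponins did not share this pattern. Tnnt1, slow troponin T, was close in all samples, with 3.60, 3.63 and 3.80 in KO and 3.59, 3.19 and 3.09 in WT, a difference of 0.39 ± 0.17 (limma adjusted p = 0.488). Its groups did not overlap, but KO sample 1 and WT sample 1 were almost equal. Tnni3, cardiac troponin I, read -1.26, -1.32 and -1.10 in KO, against -1.37, -2.06 and -2.09 in WT, a difference of 0.62 ± 0.22 (limma adjusted p = 0.400).

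Tnnt2, cardiac troponin T, which embryonic skeletal muscle also uses, read -0.60 in KO sample 1 and 0.81 and 0.95 in KO samples 2 and 3, against 0.03, -0.71 and 0.84 in WT. Tnnc1, the slow and cardiac troponin C, read -3.18, -2.51 and -1.85 in KO, against -2.29, -2.01 and -1.91 in WT. The Tnnt2 and Tnnc1 differences were 0.34 ± 0.55 and -0.45 ± 0.34, and without KO sample 1 they were 0.83 and -0.11. In Tnnc1, KO sample 1 was the lowest of the 6, and in Tnnt2 only WT sample 2 lay below it. Tnni1, slow troponin I, varied more within WT (0.06, -1.48 and 1.50) than within KO (-0.21, 0.32 and -0.16).

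Among the actins, KO sample 1 was the highest in the adult skeletal gene, narrowly over WT sample 3, and the lowest in the one used in development. Acta1, the alpha-actin of adult skeletal muscle, read 3.06, 2.07 and 2.14 in KO, against 2.08, 1.69 and 2.92 in WT. Actc1, the alpha-actin of the heart and of embryonic skeletal muscle, read 2.14, 3.69 and 3.80 in KO, against 3.40, 3.09 and 3.94 in WT. The differences were 0.19 ± 0.41 and -0.27 ± 0.49 (limma adjusted p = 0.920 and 0.904), and without KO sample 1 both turned, to -0.13 and 0.27.

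The tropomyosins, the rods that cover the myosin sites on actin, differed little. Tpm1, Tpm2 and Tpm3 differed by 0.12 ± 0.14, 0.05 ± 0.17 and 0.09 ± 0.12 at their main probes. Tpm1 has 5 probes, and they did not move alike. A pair of overlapping probes at chromosome 9, 66875782 to 66875841 and 66875796 to 66875855 in mm9, read 1.50, 1.24 and 1.07 in KO, against 0.59, 0.69 and 0.85 in WT, and 1.75, 1.50 and 1.38 in KO, against 0.96, 1.03 and 1.05 in WT. Their differences were 0.56 and 0.53, with no overlap of groups, while the main probe at 66871166 to 66871225 gave 0.12 and that at 66872131 to 66872190 gave -0.02. The pair was picked after the values were seen, was not tested by itself and shares most of its sequence, so it counts as 1 measurement.

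In the thick filament and M-band, the line where thick filaments are tied together, Myom2 and Myom1 (the M-band proteins of fast and of all striated fibres) had no overlap of groups. Myom2 read -2.16, -1.90 and -2.22 in KO, against -3.82, -4.23 and -2.60 in WT, a difference of 1.45 ± 0.42 or 2.74-fold (limma adjusted p = 0.278). Myom1 read -1.08, -1.83 and -0.63 in KO, against -2.21, -2.74 and -1.93 in WT, a difference of 1.11 ± 0.36 (limma adjusted p = 0.341). Neither depended on KO sample 1, without which the differences were 1.49 and 1.06. Within slides 1 and 2 the differences were 1.11 and 2.14 for Myom2, and 0.87 and 1.57 for Myom1.

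The myosin-binding proteins differed less. Mybpc1, the slow form of myosin-binding protein C, read 2.47, 2.49 and 2.51 in KO, against 2.34, 2.29 and 1.95 in WT (difference 0.30 ± 0.14, limma adjusted p = 0.531). At its second probe, with a difference of 0.29, the groups overlapped. Mybph, a related protein, differed by 0.44 ± 0.21 with overlap in WT sample 3. Mybpc2, the fast form, was too variable to read, from -4.12 to -1.53 in KO and from -6.06 to -2.04 in WT.

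The giant proteins titin, the spring of the sarcomere, and nebulin, which lines the thin filament, had overlapping groups, with differences of -0.16 ± 0.36 for Ttn and 0.22 ± 0.23 for Neb. All 4 Ttn probes were lower on average in KO, by -0.16 to -0.95, with groups that overlapped at each. Nebl, which encodes the nebulin relative of the heart, read -3.84, -3.14 and -3.13 in KO, against -4.18, -4.52 and -4.75 in WT, a difference of 1.11 ± 0.26 or 2.16-fold (limma adjusted p = 0.188). With the normexp background correction, which compresses dim signals, the Nebl difference was 0.54.

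Of the Z-disc genes, Tcap followed KO sample 1. Tcap encodes telethonin, the cap that joins titin ends, and read 1.69, -1.45 and -1.36 in KO, against -1.74, -0.82 and -1.97 in WT. Its difference of 1.14 ± 0.89 came to 0.11 without KO sample 1. Ldb3, a PDZ and LIM domain protein of the Z-disc, read -2.29, -4.00 and -4.09 in KO, against -3.31, -4.43 and -3.98 in WT, and its difference of 0.44 ± 0.56 turned to -0.14 without KO sample 1. A second Ldb3 probe, at chromosome 14, 35340222 to 35340281, gave another picture, with -3.51, -4.01 and -3.18 in KO and -6.69, -5.40 and -4.25 in WT.

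Myoz1, a fast calsarcin, also had its highest value in KO sample 1, with -1.65, -3.41 and -2.94 in KO and -2.72, -3.22 and -3.17 in WT, a difference of 0.37 ± 0.46 that was -0.14 without that sample. Myoz2, the slow calsarcin, was well above background on both arrays of KO sample 1 and on no other array. The actinins, which crosslink actin at the Z-disc, had overlapping groups. Actn2 read -1.96, -4.38 and -3.46 in KO, against -2.85, -3.23 and -2.16 in WT, and its difference of -0.52 ± 0.64 became -1.18 without KO sample 1 (limma adjusted p = 0.510). A second Actn2 probe read -3.43, -4.61 and -4.17 in KO, against -3.69, -3.75 and -4.37 in WT. Its groups overlapped with or without KO sample 1. Actn3, the fast actinin, differed by -0.30 ± 0.20. Des, the desmin filament that ties Z-discs together and that satellite cells already make, varied little, from 3.63 to 3.85 in KO and from 3.58 to 3.84 in WT.

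Of the energy genes, Mb, the oxygen store of slow and oxidative fibres, read 0.42, -3.00 and -2.37 in KO, against -1.04, -2.50 and -0.85 in WT. Its difference was -0.19 ± 0.96 and, without KO sample 1, -1.22. Ckm, the muscle creatine kinase, was well above background on 3 of 6 KO and 2 of 3 WT arrays, and its difference was -0.35 ± 0.64. Without KO sample 1 the Ckm difference was -1.03 (limma adjusted p = 0.523), with both KO samples below all WT samples. Those KO values, -7.07 and -5.96, were near background. With the normexp correction the Ckm difference over all samples was -0.05. Ampd1, the AMP deaminase of fast muscle, was well above background on 4 of 6 KO arrays (both of samples 1 and 3) and on 0 of 3 WT arrays, so it passed the filter through the KO arrays alone. Its KO signal was at least 1.10-fold the WT level, taking the lowest signal well above background as the bound for WT. The measured values were -4.79, -7.05 and -5.50 in KO, against -7.95, -8.34 and -7.55 in WT (limma adjusted p = 0.253), and the difference of 2.17 between values near background became 0.35 with the normexp correction.

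**Figure D3:**
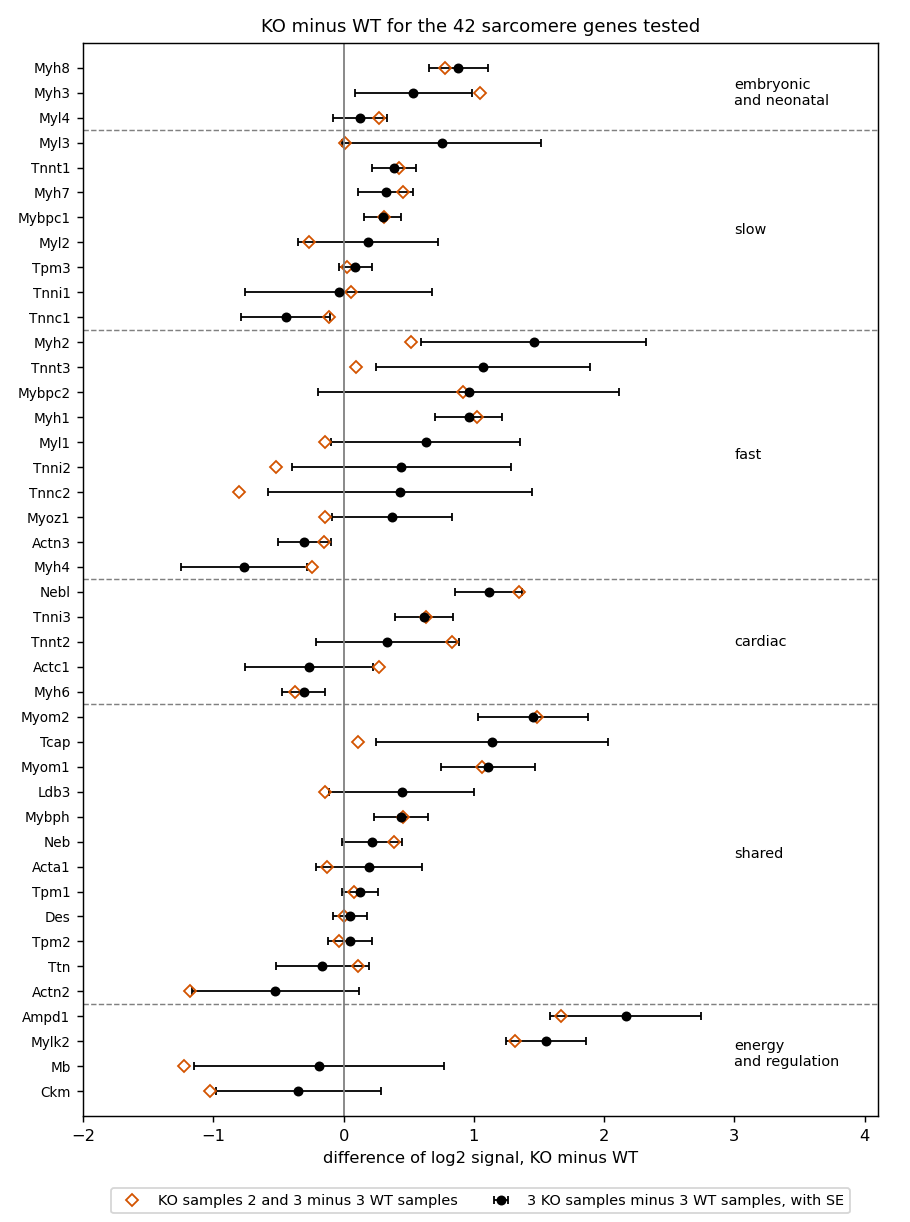
Difference of log2 signal, KO minus WT (x axis), for the 42 members tested, grouped by isoform class. Black points with bars are 3 KO against 3 WT samples with the standard error of the limma fit, and open diamonds leave out KO sample 1. The diamonds for Tnnc2, Tnni2, Mb, Myl1 and Tcap lie far to the left of their points, while those for Mylk2, Myom2, Myom1, Myh1, Myh8 and Tnni3 stay close.

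By isoform class, the median difference was 0.53 for the 3 embryonic and neonatal genes, 0.24 for the 8 slow genes tested, 0.54 for the 10 fast genes tested, 0.34 for the 5 cardiac genes and 0.21 for the 12 shared genes, with -0.02 over all genes. Without KO sample 1 these medians were 0.78, 0.04, -0.14, 0.63 and 0.09. The fast median thus changed its sign with 1 sample. Within slide 1 the medians were 0.46, 0.23, 0.38, -0.02 and 0.11, and within slide 2, where there is 1 WT array, they were 0.41, 0.31, 0.57, 0.79 and 0.51.

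Sample by sample, the classes split KO sample 1 from the other KO samples. The median deviation of the fast genes from the WT mean was 1.78, -0.35 and 0.04 in KO, against 0.17, -0.10 and -0.10 in WT. The median of the embryonic and neonatal genes was -0.16, 0.86 and 0.70 in KO, against -0.13, 0.19 and 0.13 in WT. The cardiac median was -0.18, 0.52 and 0.74 in KO, against 0.11, -0.22 and 0.00 in WT. By these medians, KO sample 1 was highest where KO samples 2 and 3 were near WT, in the fast class. It was near WT where those samples were highest, in the embryonic and neonatal and the cardiac class. Those medians near WT join genes that moved in opposite ways. In KO sample 1, Myh8 was the highest and Myh3 the lowest of all samples. Actc1, Tnnt2 and Myh6 read 2.14, -0.60 and -1.57 in it, below WT means of 3.48, 0.05 and -1.39. Nebl and Tnni3 read -3.84 and -1.26, above WT means of -4.49 and -1.84. No test was made of these medians, since the members of a class share samples and were chosen with results known.

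**Figure D4:**
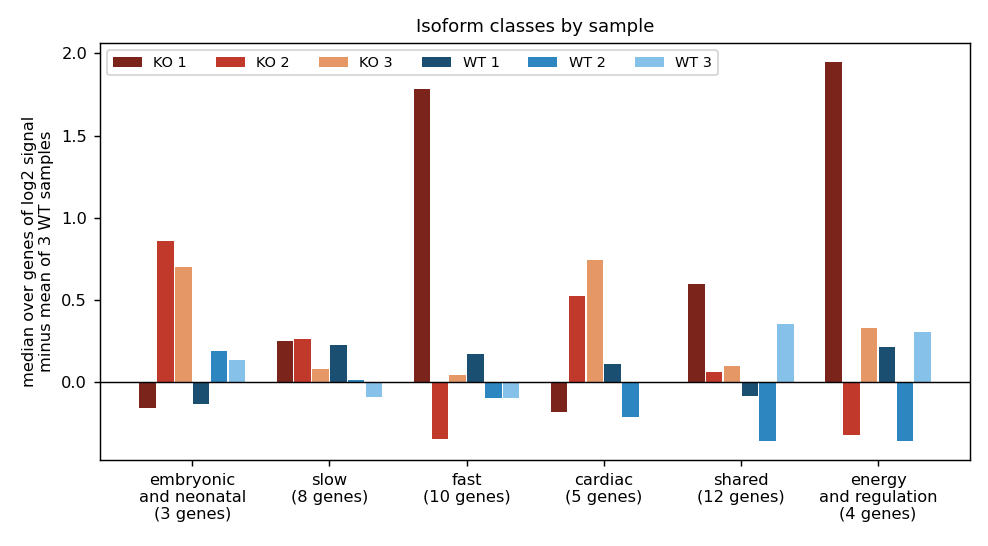
Median over the tested genes of each isoform class of log2 signal minus the mean of the 3 WT samples (y axis), with 1 bar per sample, KO in reds on the left and WT in blues on the right of each class. The bar of KO sample 1 reaches 1.78 in the fast class and 1.95 in the 4 energy and regulation genes, and lies below 0 in the embryonic and neonatal and in the cardiac class.

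Several members are neighbours in the genome, in the gene order of RefSeq's GRCm38.p6. Myh3, Myh2, Myh1, Myh4 and Myh8 follow each other on chromosome 11 with 0 coding genes between neighbours, and their differences of 0.53, 1.46, 0.96, -0.77 and 0.88 did not run one way. The KO sample 1 values within this cluster were the highest of all samples for Myh2 and Myh8 and the lowest for Myh3 and Myh4. Tnni2 and Tnnt3, with 1 coding gene between them on chromosome 7, were both highest in KO sample 1. Tnnt1 and Tnni3, with 0 coding genes between them on the same chromosome, both had KO samples above all WT samples. Myh6 and Myh7, adjacent on chromosome 14, differed by -0.31 and 0.32, and Tnni1 and Tnnt2, with 1 coding gene between them on chromosome 1, by -0.04 and 0.34.

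Other myofibril genes, a list of 48, were read in the same fit. Of 44 tested, 0 passed the adjusted threshold (0.141% of all genes). At an unadjusted p under 0.05, 5 were higher and 2 lower in KO (11% of all genes). Their median difference was 0.04. The 3 smallest p belonged to Trim54, a titin-associated ubiquitin ligase (-0.59 ± 0.15, limma adjusted p = 0.243), Synpo2, an actin-binding protein of the Z-disc (1.06 ± 0.29, limma adjusted p = 0.255), and Myom3, an M-band protein (limma adjusted p = 0.300). Myom3 was well above background on 6 of 6 KO and 0 of 3 WT arrays, so it passed the filter through the KO arrays alone. It had to be higher in KO and is among the 5 higher genes counted above. Its KO signal was at least 3.31-fold the WT bound.

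Several of these genes, chosen after their values were seen, also had their highest value in KO sample 1. Csrp3, a LIM protein of the Z-disc, read 0.83, -3.14 and -3.96 in KO, against -4.12, -3.42 and -4.51 in WT. Ankrd2, a stretch-responsive ankyrin repeat protein, read 1.67, -0.67 and -0.89 in KO, against -1.24, -0.63 and -2.72 in WT. KO sample 1 lay more than 1 above all other samples in 4 of the 44 (0.596% of all genes). Among the 4, Myot was well above background on 3 KO and 0 WT arrays, so it passed the filter through the KO arrays alone.

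The non-muscle and smooth muscle counterparts of the members, such as Actb, Myh9 and Tpm4, had a median difference of 0.08. Of the 18, 0 passed the adjusted threshold (0.141% of all genes). At an unadjusted p under 0.05, 1 was higher and 1 lower in KO (11% of all genes). Their smallest p was that of Myl9, the smooth muscle regulatory light chain (1.12 ± 0.26, limma adjusted p = 0.192), followed by Actn1 (-0.34 ± 0.14) and Actg2 (0.79 ± 0.41). KO sample 1 exceeded all others by more than 1 in 0 of these 18 genes (0.596% of all genes).

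Of 17 genes of myogenic differentiation, 0 passed the adjusted threshold (0.141% of all genes), and their median difference was 0.30. At an unadjusted p under 0.05, 1 was higher in KO (11% of all genes). The 3 smallest p were those of Dmd (dystrophin, 0.41 ± 0.13, limma adjusted p = 0.326), Myf6 (0.54 ± 0.23) and Rbfox1 (0.37 ± 0.18). Myog, the factor that starts differentiation, was picked for its pattern. It read 1.54, 2.76 and 3.64 in KO, against 3.11, 2.65 and 3.09 in WT, lowest in KO sample 1. The members lowest in that sample were Actc1, Actn3, Myh3, Myh4, Tnnc1 and Ttn. Of the 17 genes of this list, KO sample 1 was the highest in 5 and the lowest in 4 (16.996% and 15.22% of all genes). Pax7, the defining satellite cell factor, also chosen afterwards, differed by 0.02 ± 0.17, with overlapping groups.

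Genes of mature fibres outside the sarcomere, a list of 21 with 19 tested, had 0 past the adjusted threshold (0.141% of all genes). Their median difference was 0.10. At an unadjusted p under 0.05, 4 were higher and 1 lower in KO (11% of all genes). Trdn, the triadin of the calcium release unit, read -2.92, -3.20 and -3.40 in KO, against -4.82, -5.32 and -5.58 in WT, the smallest p of the list (2.07 ± 0.24, limma adjusted p = 0.0621). Jph2, which joins the membranes of that unit, and Sln, an inhibitor of the calcium pump, followed with 1.15 ± 0.33 and 1.35 ± 0.41. KO sample 1 was the highest in 7 of the 19 (Cacna1s, Cox6a2, Cox7a1, Eno3, Jph2, Pgam2 and Trdn) and the lowest in 5, and it exceeded all other samples by more than 1 in 1, Cox6a2. Of the 10 fast sarcomere genes tested it was the highest in 6 and the lowest in 2. Over all genes it was the highest in 16.996% and the lowest in 15.22%.

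The summed markers of 4 other cell types were higher in KO, and the endothelial list was mostly highest in KO sample 1. All 13 endothelial markers had a difference above 0, and 10 of them were highest in KO sample 1 (16.996% of all genes). Both counts include Robo4, which was well above background on 4 KO and 0 WT arrays. Robo4 thus passed the filter through the KO arrays alone and had to be higher in KO. The summed signal of the 13, in units of the array's 75th percentile, was 5.93 to 8.93 in KO and 4.43 to 5.63 in WT. The smooth muscle and pericyte list had a sum of 77.6 to 83.2 in KO and 67.9 to 72.7 in WT. That sum is mostly Acta2, Notch3 and the member Des, which differed by 0.20, 0.10 and 0.05 with overlapping groups. Of its 11 genes 1, Pdgfrb, passed (1.35 ± 0.11, limma adjusted p = 0.0377), where 0.141% of all genes did. The sums were 171 to 191 in KO and 121 to 135 in WT for the 11 mesenchymal markers, and 33.2 to 35.9 in KO and 22.5 to 29.0 in WT for the 9 glial markers. KO sample 1 was the highest in 7 of the 11 smooth muscle and pericyte markers and 5 of the 11 mesenchymal markers. It was the highest in 0 of the 8 glial markers tested (16.996% of all genes).

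The smallest p of the endothelial list belonged to Flt1, Cdh5 and Vwf, which differed by 1.27 ± 0.26, 1.48 ± 0.32 and 0.73 ± 0.25. Those of the mesenchymal list were the collagens Col1a1 (1.91 ± 0.26) and Col1a2 (1.23 ± 0.19), and Mfap5 (1.44 ± 0.20). In the smooth muscle and pericyte list Cspg4 (0.67 ± 0.13) and Abcc9 (1.07 ± 0.29) came after Pdgfrb. In the glial list, the myelin gene Mbp differed by 1.38 ± 0.18 and the glial factor Sox10 by 1.26 ± 0.30. Of the 8 glial markers tested, 7 had a difference above 0, and the other, Ngfr, was lower in KO (-0.35 ± 0.24). Sdc4 (0.75 ± 0.13), Chrdl2 (-0.33 ± 0.13) and Cdh15 (0.20 ± 0.11) led the satellite cell list, and Cd68 (0.45 ± 0.17), Tyrobp (-1.26 ± 0.66) and Itgam (-0.08 ± 0.12) the haematopoietic list. Of these only Pdgfrb passed by limma, and the lowest adjusted p among the others was 0.0754, for Mbp.

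The 8 haematopoietic markers (120 to 133 in KO and 123 to 143 in WT, a sum dominated by a bright Itgam probe) and the 12 satellite cell markers (135 to 140 in KO and 129 to 145 in WT) had overlapping ranges. Of the 8 markers of heart muscle, 4 were not well above background on any array, including Nkx2-5 and Hand2, and their sum was 0.25 to 0.34 in KO and 0.26 to 0.40 in WT. The smallest p of that list were those of Gata4, Nppa (-0.42 ± 0.23) and Nppb (-0.03 ± 0.38). Gata4, which other tissues make too, was well above background on 6 of 6 KO and 0 of 3 WT arrays, so it was tested through the KO arrays alone, and its KO signal was at least 3.46-fold the WT bound (limma adjusted p = 0.0701). All 12 satellite cell markers were well above background on all 9 arrays. The part of the other cell types in the differences of the sarcomere genes, and in KO sample 1, was not tested.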

How the data were processed

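Per the file headers, the authors deposited Agilent Feature Extraction output of 9 arrays of 1 colour (Cy3), and the processed signal, an intensity on a linear scale, has background and spatial trend removed, with dim values replaced by a positive surrogate and no normalization between arrays. Per the labels' protocols, RNA of sorted cells was amplified by whole transcriptome amplification, which can distort levels, so levels of different probes were not compared. The table that the authors also deposited holds log2 values by its range. It matched normexp (offset 50) followed by quantile normalization of the same arrays (r of at least 0.99998, column median 7.81), no source used here states its method, and it served as an alternative.

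From the 62976 spots per array, 59305 non-control spots were used. Spots marked as outliers were dropped, repeat spots averaged and 35 empty probe values filled with the mean of the other arrays. The log2 of the signal minus the array's 75th percentile was taken, and KO arrays sharing an extract number were averaged. A gene was tested if 3 or more of the 9 arrays had its brightest probe well above background, a filter that favours genes present in KO alone, since 6 arrays are KO. The test was limma's (version 3.58.1, functions lmFit and eBayes, in R 4.3.3), with Benjamini-Hochberg adjustment over 28377 genes and a threshold of 0.05 (4 residual and 2.04 prior degrees of freedom), after tests on simulated data. Python 3.11.15, pandas 2.3.3 and matplotlib 3.10.9 did the rest.

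Arrays lay on 2 slides, with both slides in every KO sample. WT and KO samples share extract numbers, but over all genes samples of the same number did not deviate together (correlations -0.04, 0.02 and 0.01). The number was therefore not used as a pairing, though such correlations cannot exclude one. For the bound of a dim group, each array gave its own signal or the array's lowest signal well above background, whichever was higher, and these were averaged. Probe coordinates come from the array design (mm9), and exon annotation was not used here. Member probes kept the name in the files, and other probes were renamed through a RefSeq table. The text names every member, and of each other list the 3 smallest p and any gene past the threshold, with others given as examples or said to be chosen afterwards. One result of these lists is not reported here. The members, lists and tests were chosen with earlier results of these data known.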

Additional observations from a re-analysis of the deposited data

How the results depend on the processing

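The count of sarcomere genes past the threshold was 0 in the reported fit and under all alternatives run but 3: 5 with all 9 arrays as separate samples (Myh1, Myh8, Mylk2, Myom2 and Nebl), and 1, Mylk2, with a random block per sample, whether or not slide was a fixed block. Fits of single arrays count repeat arrays of an extract as information on the group. Over all genes the count was 40 in the reported fit, 1200 with separate arrays, 546 with the random block and 367 with that and slide. It was 4 with each sample's mean slide number as a covariate. Every KO sample lay on both slides, so the WT samples alone set that slide term. The count over all genes was 2 within slide 1, 295 with normexp, 248 with normexp and quantile normalization, 248 with the deposited table, 13 with no filter and 104 with probes well above background on all 9 arrays. With the extract number as a replicate block, a pairing not used in the reported fit, limma called 0 genes, with 2947 at an unadjusted p under 0.05. Leaving out 1 sample gave 0 to 9 genes and 0 members in each case.

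Leaving out 1 sample at a time, the median difference ranged from 0.10 to 0.42 over all members, 0.27 to 0.78 for embryonic and neonatal, 0.042 to 0.37 for slow, -0.14 to 0.95 for fast, -0.043 to 0.63 for cardiac and 0.09 to 0.40 for shared genes. The lowest values of all members, slow, fast and shared genes came without KO sample 1 (shared 0.09), and that of cardiac genes without WT sample 2. The cardiac median was 0.79 within slide 2. Of the 42 members, 24 kept the sign of their difference under all 20 alternatives, and 12 changed it without KO sample 1. The cause of these changes was not tested. With 3 samples a group, and Ampd1, Ckm, Mylpf and Myoz2 near background on several arrays, small differences could not be resolved.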
